A study of Drosophila melanogaster and Nicrophorus vespilloides with 16 samples.

Results

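Distal H3K4me3 summits were those that lay more than 1 kb from both ends of every protein-coding gene, and they made up 992 of the 19035 summits called on the 6 chromosome arms of Drosophila melanogaster larvae. They were chosen by position alone: the distance of each summit to the nearest end of any of 13922 coding genes on its own arm, as placed by the RefSeq gene table, had to exceed 1000 bp. Distal summits of any replicate no more than 250 bp from the next one were chained into regions, which gave 646 distal regions. Chaining the remaining summits in the same way gave 6401 regions at coding gene ends.

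Chromatin immunoprecipitation with an antibody to H3K4me3 was sequenced in 4 replicates of the wild-type strain Oregon-R. Each replicate pooled 30 whole third-instar larvae, so every list mixes all larval tissues and many animals. No genotype or treatment differed between the fly samples, and the comparison here is between places in the genome. Brains of the burying beetle Nicrophorus vespilloides were profiled in the same series, and neither they nor the input libraries were analysed here.

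H3K4me3, the trimethylated form of lysine 4 of histone H3, is deposited mainly around active transcription start sites by Set1 and related methyltransferases. A gene can carry it far from both annotated ends when a shorter transcript starts within the gene, and the start of a long noncoding RNA or of a microRNA precursor can carry it outside coding genes. Distal enhancers are better known for the monomethylated form of the same lysine. The gene table gives no strand and no transcript starts, so both ends of a gene were treated alike, and a start inside a gene could not be told from any other internal position.

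The lists held 3518, 4969, 5235 and 5313 summits in replicates 1 to 4, and their read depth is unknown. Markers of larval tissues were checked for summits near their ends: in 3 or more replicates 1 of 25 had one, the fat body storage protein gene Lsp2, against 43.9% of all coding genes. The neuronal gene elav had one in 2 replicates, and the other 23 markers had none in any replicate. No pair of replicates shared a summit with both the same position and the same score.

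Distal summits were a small share of each list and differed severalfold between replicates. Replicate 1 held 92 distal summits, which was 2.62% of its list. Replicate 2 held 205 (4.13%), replicate 3 held 283 (5.41%) and replicate 4 held 412 (7.75%), a mean of 4.98% ± 2.18 (SD, n = 4). The share was lowest in the shortest list and highest in the longest one.

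Distal summits scored lower than summits at coding gene ends in every replicate. Scores are a −log10 of a p-value or a q-value and grow with depth, so each was turned into a percentile among all summits of the same list, with 100 the highest. The median distal summit lay at percentile 30.0, 19.99, 11.4 and 11.8 in replicates 1 to 4. The median summit at a coding gene end lay at 50.7, 51.2, 52.2 and 53.0. The distal median minus the other was −33.4 percentile points on average ± 9.70 (SD, negative in 4 of 4 replicates), and an exact two-sided sign-flip permutation test gave p = 0.13, the smallest value that 4 replicates allow. With every list trimmed to its 3518 highest scores the difference was −17.72. As scores, the medians were 4.64, 5.45, 6.08 and 7.69 for distal summits and 6.01, 8.92, 15.6 and 25.9 for the others.

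The strongest summits were nearly always at coding gene ends. In the highest-scoring 20% of each list, 9 of 707, 13 of 995, 12 of 1048 and 21 of 1063 summits were distal, which was 1.15% to 1.98%. In the lowest-scoring 20%, distal summits took 5.83%, 10.3%, 17.6% and 25.7% of the list in replicates 1 to 4.

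**Figure D1:**
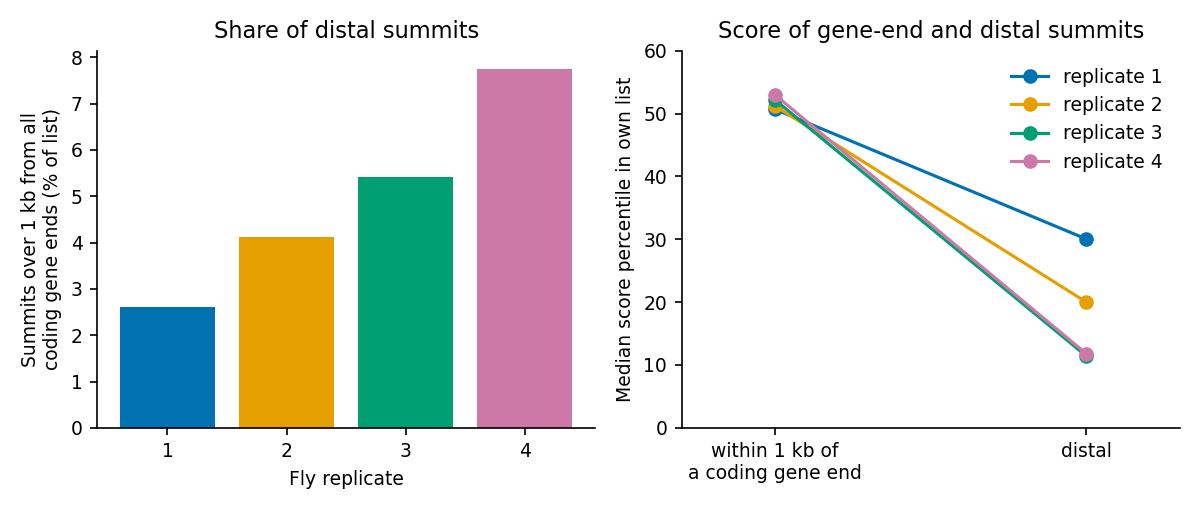
The left panel shows the percentage of each replicate's summits that were distal, and the right panel joins, for each replicate, the median score percentile of summits within 1 kb of a coding gene end to that of distal summits. All 4 lines fall, from 50.7 to 53.0 on the left to between 11.4 and 30.0 for distal summits.

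Distal summits recurred less often than gene-end summits. At least 2 other replicates had a summit, distal or not, within 250 bp for 58.7%, 43.9%, 36.7% and 24.0% of distal summits in replicates 1 to 4, against 85.8%, 81.5%, 80.2% and 77.2% of summits at coding gene ends. The distal share minus the other was −40.3 percentage points on average ± 10.9 (SD, negative in 4 of 4 replicates), with p = 0.13 by the same exact permutation test, again the smallest possible. With lists trimmed in the same way it was −25.3. Scores differed between these kinds of summit, and recurrence at equal scores was not tested.

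Of the 646 distal regions, 436 (67.5%) had a summit in 1 replicate, 108 (16.7%) in 2, 68 (10.5%) in 3 and 34 (5.26%) in all 4. Thus 102 distal regions (15.8%) were found in at least 3 replicates, against 4117 of 6401 regions (64.3%) at coding gene ends. The regions found once came mostly from the longer lists: 29 from replicate 1, 75 from replicate 2, 105 from replicate 3 and 227 from replicate 4. Of the 68 regions found in 3 replicates, 51 lacked a summit in replicate 1.

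Recurrence and score rose together. Where present, distal regions of 1, 2, 3 and 4 replicates had median percentiles of 6.54, 15.1, 35.5 and 49.6, and regions at coding gene ends had 11.8, 32.3, 49.97 and 61.0. Even distal regions of all 4 replicates were thus lower than their gene-end counterparts, and 9 of the 34 lay above the gene-end median of 61.0. Their spans were similar: the 4 replicates' summits spanned a median of 113.5 bp (quartiles 72.5 and 193.75, n = 34), against 108 bp (quartiles 70 and 175, n = 2390) at coding gene ends. Chaining at 250 bp limits the spans of both sets. The distal median was 96 bp with chaining at 100 bp and 125 bp at 500 bp.

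**Figure D2:**
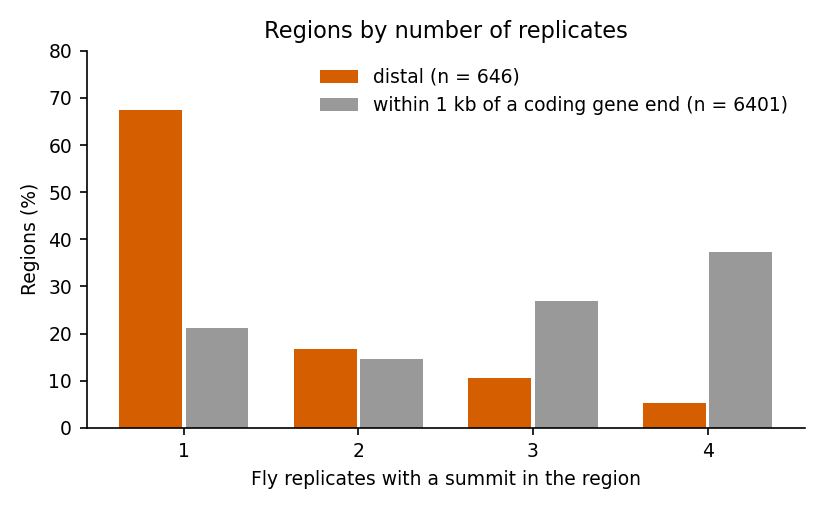
Bars give the percentage of distal regions (n = 646) and of regions within 1 kb of a coding gene end (n = 6401) that held a summit in 1, 2, 3 or 4 fly replicates. The tallest distal bar is 1 replicate, at 67.5%, where regions at coding gene ends are mostly found in 3 or 4.

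Recurrent distal regions were mostly inside coding genes. Every record not labelled protein-coding was counted as noncoding, including segment records of the coding locus mod(mdg4). Of the 102 found in at least 3 replicates, 94 (92.2%) lay within a coding gene. Another 7 (6.86%) lay outside coding genes but within 1 kb of the end of a noncoding record, and 1 lay in neither place. Among the 7 were regions at mod(mdg4) segments, on 3R from 21359473 to 21359701 and from 21360373 to 21360553. Among the 436 regions found once, 365 lay inside coding genes, 19 at noncoding ends and 52 in neither. Genes also hold most of the sequence that is far from coding ends, 65.8 Mb against 33.4 Mb outside genes. Per megabase, recurrent regions numbered 1.43 inside genes and 0.239 outside, and all distal regions 8.34 and 2.90.

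Recurrence fell off only at the longest distances. At 1 to 2 kb from the nearest coding end, 49 of 284 distal regions (17.3%) were found in at least 3 replicates. The share was 30 of 169 (17.8%) at 2 to 5 kb, 15 of 96 (15.6%) at 5 to 10 kb and 8 of 97 (8.25%) beyond 10 kb. The 8 recurrent regions beyond 10 kb lay in mub, RhoGEF3, Imp, Eip75B, jim, tara and the overlapping genes Glut4EF and CG46467, and, for 1 of them, outside any gene. That last region, on 3R from 3790093 to 3790190, was pericentromeric, 37825 bp from the nearest coding end, and reached percentiles of 20.8, 39.5 and 54.0 in replicates 2 to 4 with no summit in replicate 1.

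The highest distal regions found in all 4 replicates lay in genes of varied roles. The first was in Pex19, whose product brings membrane proteins to peroxisomes, on 2L from 12093938 to 12093988. Its scores of 16.2, 15.3, 29.7 and 46.1 put it at percentiles 99.5, 89.7, 93.4 and 91.8, a mean of 93.6 ± 4.21 (SD, n = 4). It ranked near the top of every list, the 4 summits lay within 50 bp of each other, and neither end of Pex19 had a summit within 1 kb in any replicate. The region lay 1266 bp from the nearer end of that 3429 bp gene and 1192 bp from the nearest end of any coding gene.

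The second was in Doa, which encodes a LAMMER kinase that phosphorylates splicing factors, on 3R from 28889253 to 28889386. Its percentiles were 87.4, 71.8, 97.4 and 89.3, with a mean of 86.5 ± 10.7. Doa has 15 annotated transcripts, and an end of the gene had a summit in 1 replicate. The region in eEF1alpha1, the translation factor that brings aminoacyl-tRNA to the ribosome, followed on 2R from 11892269 to 11892470, at percentiles 88.0, 59.4, 81.9 and 80.01. Here the gene's own ends also had a summit in all 4 replicates. The region in d4, a PHD finger protein gene at the pericentromeric edge of 2R (5294302 to 5294399), reached 74.7, 97.6, 71.1 and 57.6.

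Replicates spread widely in some of the next regions. Tmem214 (2L, 10967837 to 10968003) averaged 71.9 ± 26.8, from 36.6 in replicate 1 to 94.6 in replicate 2. TM9SF4, a transmembrane protein gene of 26954 bp with no summit at its own ends, averaged 68.0 ± 22.0. Gint3 and CG42306, which overlap, shared a region at 65.5 ± 13.95. The germline DEAD-box helicase gene vas, with solo and vig inside its span, held a region on 2L from 15067610 to 15067872 at percentiles 80.8, 40.1, 73.7 and 61.6. None of these 3 genes had a summit at an end in any replicate.

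Several of these regions lay in genes of transcription and chromatin. Sin3A, the scaffold of a histone deacetylase complex, held one on 2R from 12588968 to 12589009 at percentiles 46.7, 30.3, 89.5 and 68.96, 237 bp from an end of lncRNA:CR30055. MED26, a subunit of the Mediator complex on chromosome 4, held one from 787210 to 787517 at 36.2, 47.1, 61.0 and 86.2, with no summit at its own ends. Cdk12, a kinase of the RNA polymerase II tail, averaged 52.0 ± 29.9, and Brf, a factor of RNA polymerase III transcription that overlaps lute, averaged 60.6 ± 21.8. Set1, a methyltransferase for H3K4 itself, held a pericentromeric region on 3L from 25109251 to 25109438 at 31.1, 61.5, 20.1 and 94.6. The order of replicates was not the same from region to region, and in Cdk12 and Set1 the SD exceeded 29 percentile points.

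The rest of the 20 highest regions averaged between 46.4 and 61.6. They lay in CG31729, in the mitochondrial carrier genes Tyler and Shawn, which occupy the same span, in Pgk, the glycolytic phosphoglycerate kinase, in CG33144, in Tudor-SN, a nuclease-domain protein of RNA silencing complexes, at the mod(mdg4) locus, and in CG7692. Beyond these, the highest regions inside coding genes were in PI31, a proteasome regulator (46.3 ± 15.1), in the cyclophilin gene Cyp40 (43.7 ± 33.1) and in CG11050 (41.9 ± 17.9). The Pgk and CG33144 regions were weak in 1 replicate, at percentile 2.42 in replicate 1 and 10.5 in replicate 2.

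**Figure D3:**
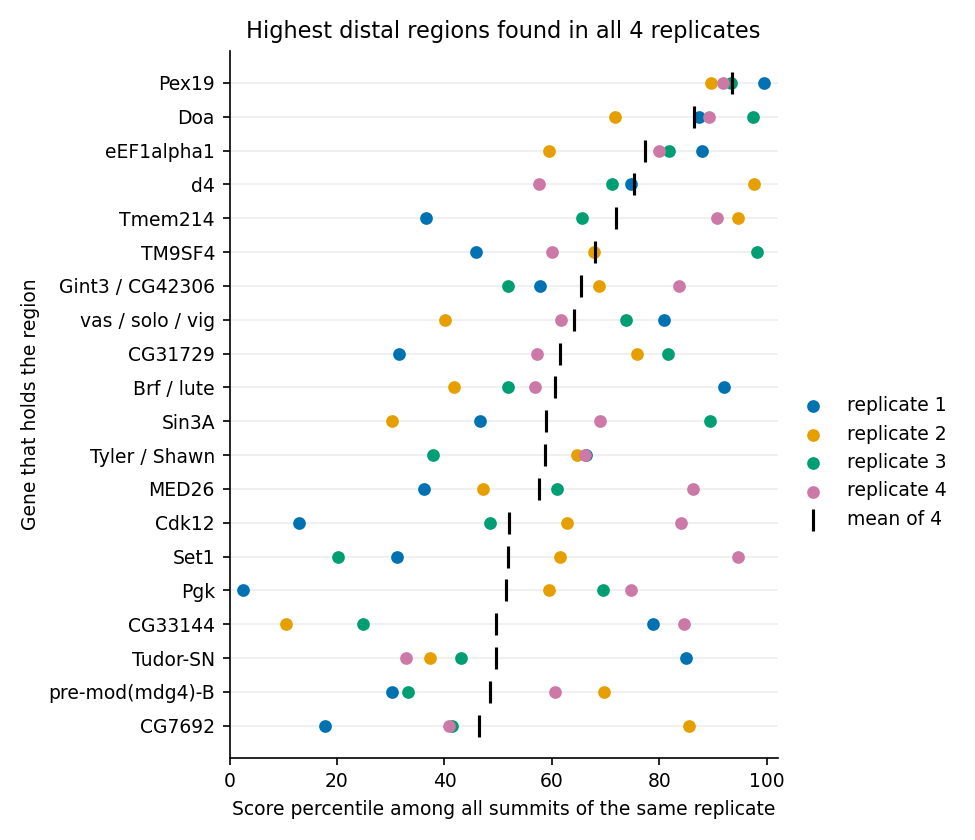
Points give the score percentile of each of the 20 highest distal regions in the 4 replicates, one row per region labelled by the gene that holds it, and the black tick is the mean. Pex19 and Doa lie above 70 in every replicate, while rows such as CG33144 and Set1 spread over more than 70 points.

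Counted by gene, 104 of the 7397 coding genes longer than 2 kb (1.41%) held a distal region found in at least 3 replicates, and 479 (6.48%) held one found in any replicate. Only genes of this length have room for a position over 1 kb from both ends. Overlapping genes were each counted, so the 94 recurrent regions inside coding genes gave 104 hosts. Genes of the same span, such as Tyler and Shawn, thus enter the host counts below as separate hosts. Hosts were rarest among the shortest genes and most frequent among the longest: 20 of 3918 genes of 2 to 5 kb (0.51%), 20 of 1503 of 5 to 10 kb (1.33%), 33 of 964 of 10 to 20 kb (3.42%), 15 of 705 of 20 to 50 kb (2.13%) and 16 of 307 longer ones (5.21%). The median host was 11780 bp long, against 4584 bp for other coding genes over 2 kb. Longer genes have more positions over 1 kb from both ends, and these shares of genes were not set against that room.

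Hosts had more annotated transcripts than other genes at each length. The median was 4 transcripts in hosts and 2 in the others, and by increasing length it was 3.5, 4, 4, 5 and 6.5 in hosts against 2, 2, 3, 4 and 4. Only 5 of the 104 hosts had a single transcript. Whether a distal summit lay at the start of one of these transcripts was not tested, since the gene table does not place them.

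Many hosts carried no H3K4me3 summit at their own ends. In 3 or more replicates an end had a summit within 1 kb for 42 of 104 hosts (40.4%), against 3622 of 7293 other coding genes over 2 kb (49.7%) and 49.5% of all 7397. In 46 of the 104 hosts neither end had a summit in any replicate, in 16 an end had one in 1 or 2 replicates, in 8 in 3, and in 34 in all 4. This split was not counted for the other genes, so whether 46 is unusual is not known. By length the host share ran 65%, 55%, 33.3%, 26.7% and 18.8%, and that of the others 55.6%, 51.9%, 43.2%, 31.0% and 24.4%. Hosts were thus higher below 10 kb and lower above it. The difference, hosts minus others, was −9.28 percentage points, and it stayed negative in 15 of 16 alternative settings, from −16.95 to −2.07. It was 23.55 with a 500 bp limit for distal summits while own-end summits were still counted to 1 kb, so that 1 summit could count as both. With 500 bp for both it was −8.50. Without replicate 1 or replicate 3 it shrank to −2.62 and −2.07. No test of it was made.

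**Figure D4:**
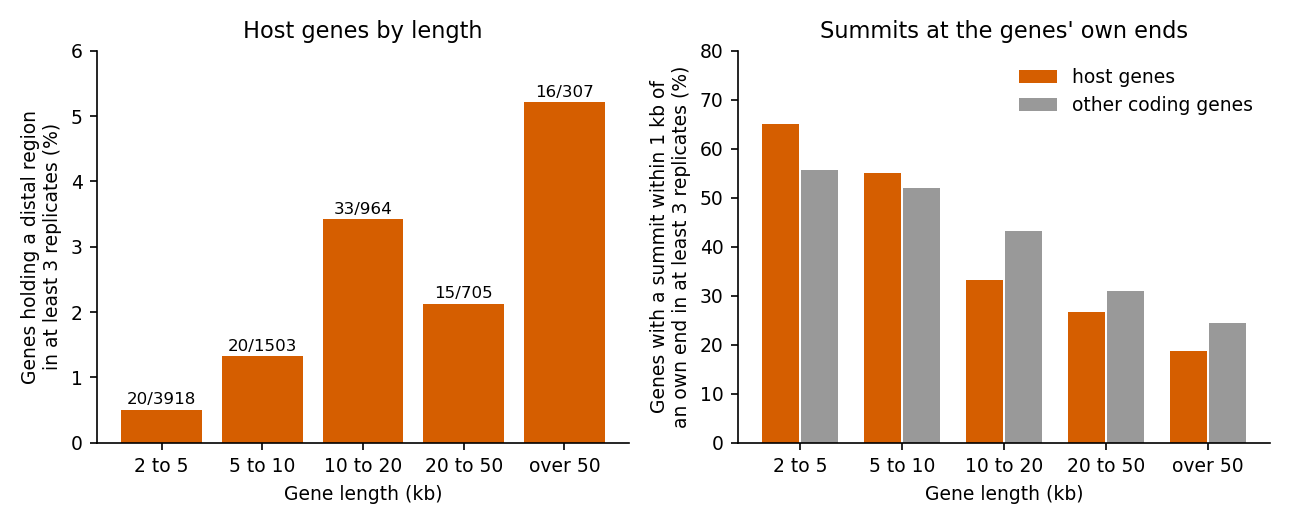
The left panel gives the percentage of coding genes in each length class that held a distal region in at least 3 replicates, with the counts above the bars, and the right panel gives the percentage of hosts and of other coding genes with a summit within 1 kb of an own end in at least 3 replicates. Host share is 0.51% in the shortest class and 5.21% in the longest, with 2.13% at 20 to 50 kb below the 3.42% at 10 to 20 kb, and own-end summits become rarer in both groups.

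Genes of the ecdysone response, the steroid hormone pathway that times larval moults and metamorphosis, were hosts in 3 of 21 cases over 2 kb (14.3%, against 1.41% of all such genes). These genes are long, with a median of 33354 bp, and 2.13% of all coding genes of 20 to 50 kb and 5.21% of longer ones were hosts. EcR, the ecdysone receptor, held a region on 2R from 6131285 to 6131540, at percentiles 4.09, 46.6 and 26.1 in replicates 2 to 4 with none in replicate 1. It lay 37658 bp from the nearer end of the 81215 bp gene and 5874 bp from the nearest coding end, that of CG14589. Neither end of EcR had a summit in any replicate. Eip75B, an early ecdysone-induced nuclear receptor, held one on 3L from 17961482 to 17961515 at 49.3, 20.8 and 27.8 in replicates 2 to 4. In replicate 1 a separate summit lay at 17960530, outside the chaining distance, at percentile 51.4. The coactivator gene tai held a region in all 4 replicates, at 31.1, 7.75, 16.0 and 56.2, and had summits at its own end in all 4 as well. Eip74EF, crol and vri held distal regions in 1 or 2 replicates.

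A list drawn up as BTB and zinc-finger regulators had 3 hosts among 22 genes (13.6%), and 9 held a distal region in any replicate (40.9%). The median gene was 53636.5 bp long, and of all coding genes over 50 kb 19.2% held a region in any replicate, against 6.48% over all lengths. The hosts were jim, a zinc-finger gene, mod(mdg4), a BTB gene, and bun, which encodes a leucine zipper protein of the TSC-22 family with neither domain. The list also holds pum, an RNA-binding protein gene that stands in the next list too. The bun region was 698 bp from mir-967 and lay above the list median in 1 of its 3 replicates, at percentiles 16.0, 36.1 and 52.9 in replicates 2 to 4. The jim region stayed low, at 19.6, 1.76 and 11.5.

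Among RNA-binding and splicing regulators 3 of 26 were hosts (11.5%) and 9 held a distal region in any replicate (34.6%), with a median length of 53654 bp and so the same background of 5.21% and 19.2%. In mub, a KH-domain RNA-binding protein gene of 87915 bp, the region on 3L from 21879781 to 21879877 was 35071 bp from the nearest coding end and present in all 4 replicates, at 3.77, 19.6, 37.6 and 61.2. In Imp, an mRNA-binding protein gene, it reached 66.3, 13.1 and 25.6 in replicates 2 to 4. In mbl, a splicing regulator gene of 162828 bp with 19 transcripts, it reached 14.8, 7.19 and 18.4. None of these 3 genes had a summit at its own ends in any replicate.

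Chromatin regulators mostly had summits at their ends, 22 of 28 in 3 or more replicates, against 43.9% of all coding genes. Of the 27 over 2 kb, 2 were hosts (7.41%), against 1.41% of all such genes and 1.33% of those of 5 to 10 kb, the class of the list's median of 8638 bp. These were Set1 and ph-p, a Polycomb group gene with no summit at its own ends, whose region reached 43.5, 13.1, 38.2 and 12.9. In the signalling list 1 of 30 was a host (3.33%), the AP-1 transcription factor gene kay, at 33.9, 2.16 and 12.8 in replicates 2 to 4. In the muscle and cytoskeleton list 1 of 27 was a host (3.7%), the tropomyosin gene Tm1. Its region reached 49.3, 45.1 and 41.8 in replicates 1, 3 and 4. The median lengths of these lists were 35551 and 30560 bp, and 2.13% of all coding genes of 20 to 50 kb were hosts. In any replicate 8 signalling genes (26.7%) and 7 muscle and cytoskeleton genes (25.9%) held a distal region, against 13.9% of genes of that length.

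No gene of the neuronal list was a host, of 31, and only dlg1 held a distal region in any replicate (3.23%). The neuronal genes were long, with a median of 49105 bp. None of the 26 Hox and homeodomain genes was a host, and their median was 20318 bp. Lim1, ap, en, hth and inv held regions found in 1 or 2 replicates (19.2%). Of all coding genes of 20 to 50 kb, 2.13% were hosts, so 0 of 31 and 0 of 26 are near that share. In any replicate 13.9% of genes of that length held a region. None of the 17 tissue marker genes over 2 kb was a host. The median of that list was 3612 bp, and 0.51% of genes of 2 to 5 kb were hosts. These counts describe the lists, and no list was tested against another.

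The mod(mdg4) locus held 15 distal summits beside its coding gene and in it. Its messenger RNAs, which encode BTB-domain chromatin proteins, are known to be joined by trans-splicing of common exons to alternative last exons that are transcribed separately, some from the opposite strand. The gene table gives the coding gene on 3R from 21370101 to 21377401 with 31 transcripts, and beside it 23 segment records named pre-mod(mdg4) that share 9 distinct spans between 21354445 and 21373575. All 15 distal summits lay in these spans, 2 in replicate 1, 5 in replicate 2 and 4 in each of replicates 3 and 4.

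The 15 summits formed 6 regions, of which 1 was found in all 4 replicates and 2 in 3. The region from 21359473 to 21359701, inside the higher-coordinate end of the B and K groups of segments, reached percentiles 30.3, 69.7, 33.3 and 60.5. From 21360373 to 21360553, inside the lower end of segments T and Z, the percentiles were 80.1, 91.5 and 86.6 in replicates 2 to 4, and their mean, 86.1, was the highest among the 68 distal regions of 3 replicates. From 21373304 to 21373471, inside the higher end of segments N, O and AA and within the coding gene itself, they were 20.6, 40.7 and 59.8. Outside the naming rule and chosen after their values were seen, 2 further regions at the ends of segments AB and C and of segment U were strong in the 2 replicates that had them, at 77.0 and 88.1 in replicates 2 and 3, and at 91.0 and 91.3 in replicates 2 and 4. A single summit of replicate 1 at 21366172 had percentile 19.02.

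Each segment span carried summits at 1 of its ends and not at the other. Within 600 bp inside an end, all 9 spans had distal summits at 1 end only, and several spans share an end. Of the 15 summits, 13 lay within 300 bp of a segment end, with a median distance of 221 bp. Summits of different replicates at 1 place are not independent. By the midpoints of the 6 regions the distances were 247, 287, 223, 207, 563 and 215 bp. In the same spans, 25.3% of the positions over 1 kb from a coding end are that close to a segment end. The limits of 600 bp and 300 bp were both chosen after the summits were seen. The higher end of mod(mdg4) itself had a summit in replicates 2 to 4, at percentiles 78.9, 41.4 and 85.2, within the range of the segment regions. The other segment record of the table, pre-lola-G, had no summit within 1 kb of its ends.

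**Figure D5:**
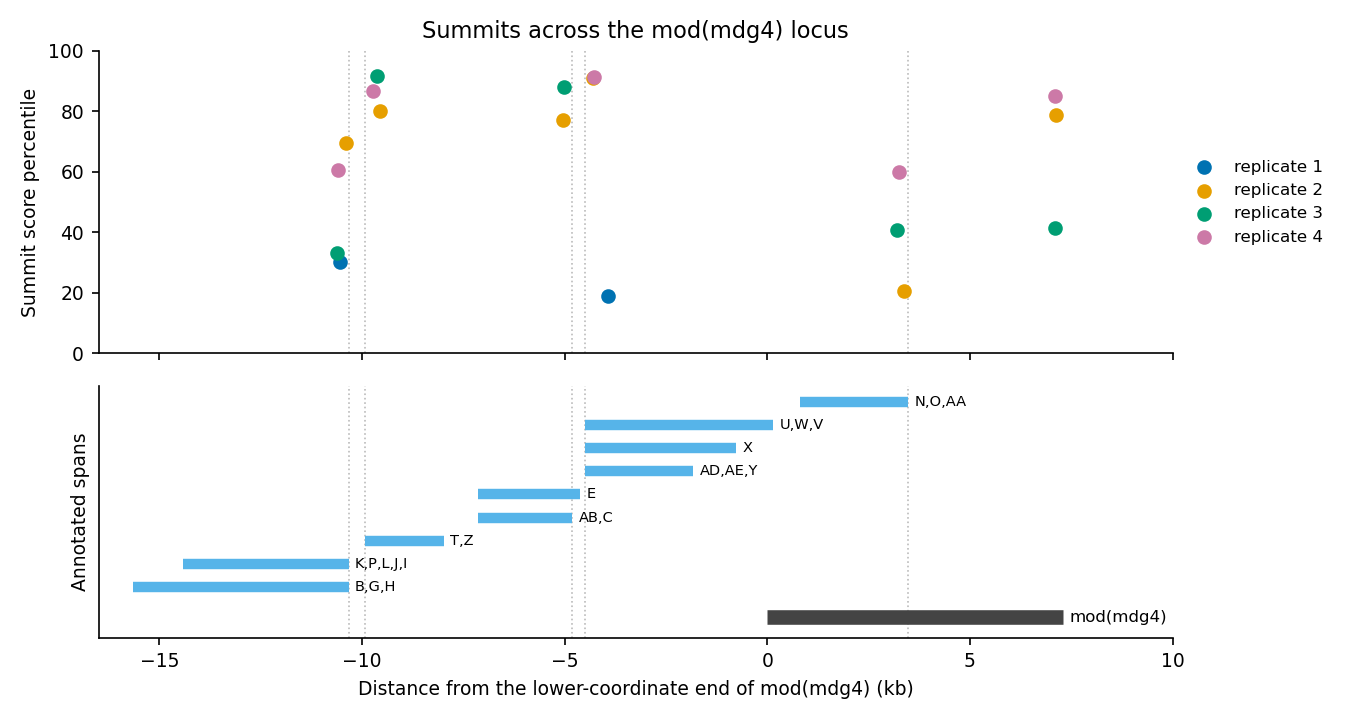
Upper panel, score percentile of every summit in each replicate against its distance in kb from the lower-coordinate end of mod(mdg4); lower panel, the coding gene (dark) and the 9 spans of the pre-mod(mdg4) segment records (blue, labelled by segment letters). Dotted lines mark the segment ends nearest to distal summits, and the summits sit beside those ends, in the span.

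Some recurrent distal regions lay near noncoding genes. Of the 102, 18 (17.6%) lay within 1 kb of an end of some noncoding record, against 86 of all 646 distal regions (13.3%). These counts include regions inside coding genes and regions at the segment records of mod(mdg4), a coding locus. The share was 9.86% of the regions found once and 23.1% of those found in 2 replicates. For the 18, the nearest such record was a long noncoding RNA in 7, an antisense RNA in 4, a mod(mdg4) segment in 3, a microRNA in 2 and a snoRNA in 2.

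The gene of the microRNA mir-14 had 2 recurrent distal regions. Both lay in lncRNA:CR43651, the longer noncoding transcript that holds mir-14, a microRNA known in flies for limiting cell death and fat storage. The region on 2R from 9553029 to 9553194 was found in all 4 replicates, at percentiles 44.5, 46.7, 17.04 and 47.4, and lay 675 bp from the mir-14 hairpin and 243 bp from an end of the longer transcript. The second, from 9553685 to 9553767, lay 11 bp from mir-14 and was weaker, at 4.63, 5.21 and 26.05 in replicates 2 to 4.

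Outside coding genes, hosts of other microRNAs had distal regions in fewer replicates, and they are named here after their values were seen. MicroRNAs inside coding genes, such as mir-967 in bun with its region of 3 replicates, are left out here. In lncRNA:CR43650, which holds mir-8, 1 region was found in replicates 2 and 3, at percentiles 20.4 and 8.00, and a separate summit of replicate 4 lay 55 bp from mir-8 at percentile 18.1. In the hosts of mir-275 and mir-305 and of mir-282, regions were found in replicates 3 and 4, the first at 32.8 and 42.7. At mir-279 a region was found in replicates 2 and 4, at 18.6 and 23.5. All stayed below the median of their lists.

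Other recurrent regions at noncoding ends were found in 3 replicates. At lncRNA:CR46450, on the pericentromeric part of 2L from 23176460 to 23176493, percentiles were 84.5, 65.9 and 50.3 in replicates 2 to 4. At asRNA:CR44030 on chromosome 4 (959964 to 960020) they were 55.5, 1.38 and 87.8, so the 3 lists ranked the same place very differently. At lncRNA:Hsromega, the heat shock RNA omega gene, which makes a nuclear RNA and is also transcribed without heat shock, they were 0.755, 19.1 and 43.1, from 21296894 to 21297080 on 3R.

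Chromosome 4, a small chromosome rich in heterochromatin, had the largest share of distal regions: 57 were distal and 66 lay at coding gene ends (46.3% distal), against 7.28% to 10.2% on the other 5 arms. Most were found once, 52 of 57, and 4 were found in at least 3 replicates. By replicate, 1 of 21, 12 of 58, 18 of 62 and 36 of 83 summits on chromosome 4 were distal, or 4.76%, 20.7%, 29.03% and 43.4%. On the arms outside pericentromeric sequence the shares were 2.42%, 3.72%, 4.67% and 6.75%. The chromosome 4 share was higher in 4 of 4 replicates, 24.5% ± 16.1 against 4.39% ± 1.82, with p = 0.13 by the exact sign-flip permutation test.

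Pericentromeric sequence at the inner ends of the larger arms also had more distal summits. The shares were 10.8%, 11.4%, 21.0% and 22.6% in replicates 1 to 4, a mean of 16.4% ± 6.22 and higher than on the rest of the arms in 4 of 4 replicates (p = 0.13, exact permutation test). Of the 102 recurrent distal regions, 9 were pericentromeric. On both kinds of sequence the share grew with the length of the list, as it did elsewhere, and the density of coding genes there was not taken into account.

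Regions near the 1 kb limit show what the rule divides. Just outside it, and in all 4 replicates, lay the regions in Cyp40 at 1053 bp, Cdk12 at 1094 bp and Hsc70-3, the endoplasmic reticulum chaperone gene, at 1147 bp. Their mean percentiles were 43.7 ± 33.1, 52.0 ± 29.9 and 24.8 ± 16.0. The nearest summit counted with a coding gene end was 26, 827 and 10285 bp away, so the limit cut the Cyp40 region from its neighbour. Of the 102 recurrent distal regions, 3 lay within 250 bp of such a summit. Just inside the limit lay regions at Clc and CG6951 at 908 bp, pnut at 870 bp and gro at 867 bp. These had mean percentiles of 75.01 ± 25.7, 48.2 ± 10.6 and 58.5 ± 37.2.

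Ranked by percentile, the 3 highest distal regions found only once all came from replicate 1, the shortest list. Raw scores rank otherwise: a summit in ci, distal in replicate 4 only, had a score of 13.3 at percentile 22.9. It lay 30 bp from a summit counted with a coding gene end, so the 1 kb limit cut it from that neighbour. On X a summit at 54356, outside any gene and 52176 bp from the nearest coding end, had a score of 7.19 and percentile 66.8. In the kinase gene Tao, also on X, a summit at 19578523 had percentile 65.9, and in CG4622 on 2R a summit at 24535078 had percentile 57.7 and lay 142 bp from a summit counted with a coding gene end. None had a distal summit within 250 bp in the 3 longer lists.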

How the data were processed

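H3K4me3 summits of 4 fly replicates were analysed, each list called in 1 sample and not pooled by the authors. Reads were aligned with BWA 0.7.17 and peaks called with MACS2, per the submitters' processing notes, which also list Picard 2.17.11, SAMtools 1.9, cutadapt 1.16 and FastQC 0.11.7. The genome build, use of input, duplicate removal and MACS2 settings were not given in the sources used here. The deposited score is, from its values, a −log10 p-value or q-value, and which one is not stated; the lowest fly scores lie just above 1.30, the value at 0.05. Read depth is unknown, so no counting interval was computed.

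Positions were set against a RefSeq gene table (Release 6 plus ISO1 MT) without strand, transcript positions or sequence, and are written 1-based as deposited. Summits were ranked within each list; a region's mean percentile counted a missing replicate as 0. Where a replicate had several summits in a region, the highest was used. One summit of replicate 3 lay on an unplaced scaffold without genes and was left out. Pericentromeric sequence was set by hand as the parts above 22 Mb on 2L and X and 23 Mb on 3L, and below 5.5 Mb on 2R and 4.5 Mb on 3R. The test over replicates was an exact two-sided sign-flip permutation test; per the labels the replicates are separate pools of larvae.

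Named regions were the 20 with the highest mean percentile among those in all 4 replicates, and the next 3 by place class, chromosome 4 and pericentromere. Also named were hosts of 3 or more recurrent regions (0 genes) and list members holding a recurrent region. The last were the 3 nearest each side of the limit and the 3 single-replicate regions with the highest percentile. Members, gene lists and tests were chosen with earlier results of these data known. Listed names matched the table by symbol (222) or synonym (7), and 2 did not. Scripts, tested on simulated data, used matplotlib 3.10.9, scipy 1.17.1, pandas 2.3.3 and numpy 2.4.6 under Python 3.11.15.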

Additional observations from a re-analysis of the deposited data

Results flagged for a closer look

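For 32 sets of 4 replicate values, those of the named regions with a summit in all 4 replicates and of the per-replicate shares and medians, the gap of the highest or lowest replicate to its nearest neighbour was set against the range of the 4 values, a check that chance trips in about 1 of 20 groups. It was met in 2 sets, both regions with replicate 3 far below the other replicates. In the region of Tyler and Shawn on X, replicate 3 had score percentile 37.8, against 64.6 to 66.4 in the others. In the region of lncRNA:CR43651 on 2R, replicate 3 had 17.04, against 44.5 to 47.4.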

How the results depend on the processing

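Over 16 alternatives, 139 recomputed values stayed close: shares within a 95% exact binomial interval, or 1 SD for the distal share, counts within 1.5 times, and tested differences in direction only. Another 35 moved further and 1 changed sign, the share of hosts minus that of other genes with own-end summits, which was −9.28 percentage points and became 23.55 with a limit of 500 bp. With a limit of 500 bp in place of 1 kb, the distal share was 13.5%, 264 regions were found in at least 3 replicates in 273 host genes, and 71.4% of hosts had summits at an own end; with 2000 bp these were 2.71%, 51, 52 and 28.9%. With lists trimmed to the 3518 highest summits they were 2.26%, 45, 49 and 30.6%, and 25.3% of regions recurred, while the differences in percentile and recurrence became −17.72 and −25.3. The share of regions that recurred was 11.2% with chaining at 100 bp, 19.3% at 500 bp and 20% with scores of at least 5. Asking for all 4 replicates left 34 regions (5.26%) and 37 hosts. Counting ends of all genes, 98.8% of recurrent regions lay inside coding genes, and the share at noncoding ends is 0 by construction. Chains of all summits in which none lay within 1 kb, chosen after seeing the data, gave 99 regions and 101 hosts. Leaving out each replicate and asking for 2 of the other 3 gave 122 to 198 regions (24.1% to 32.1%), 119 to 186 hosts, 43.7% to 51.1% with own-end summits, and distal shares of 4.05% to 5.76%; without replicate 1 the counts were highest. Hosts minus others then ran from −7.31 to −2.07. Using 500 bp or 2000 bp for own-end summits too, also chosen after seeing the data, gave −8.50 and −9.10 with the same counts of regions and hosts. No paired analysis was possible because there is no second fly group to block by replicate number, and distal and gene-end summits were already compared within each replicate. Depth is unknown, so weak summits missing from a short list cannot be told apart from absent ones.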

Other observations

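A few genes held several distal regions that mostly did not recur. Gyf on chromosome 4, with summits at its own ends in all 4 replicates, held 5 distal regions, each found in 1 replicate and none above percentile 9.23. MED26, also on chromosome 4, held 3 such regions beside its recurrent one. In milt, the adaptor that links mitochondria to kinesin, 1 of 4 regions was found in 3 replicates, at percentiles 4.70, 14.002 and 20.6 in replicates 1, 3 and 4. In hth, a homeodomain gene of 132008 bp without summits at its ends, none of the 3 regions was found in more than 2 replicates. Only galectin and CG43736 held 2 regions found in at least 3 replicates each. The galectin regions lay 249 bp and 962 bp from an end of asRNA:CR44987, and those of CG43736 reached at most percentile 78.6. Neither gene had a summit at its own ends in any replicate.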
